A study of Nothobranchius furzeri with 10 samples.

Results

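The genes described here are the 100 genes of killifish muscle whose level differed most among libraries inside both of the title blocks of the series. They were taken from a pool of 13604 genes, out of 26739 in the count table. The pool holds the genes whose mean level reached 1 CPM (the count scaled to the column total of its own library), without the 100 most abundant genes. For each gene the standard deviation (SD) of log2(CPM + 0.5) was taken among the 5 libraries with title numbers 74 to 78 and, apart from that, among the 5 with title numbers 80 to 84. The members were chosen by these measured SDs, as the 100 genes with the largest value of the smaller one, so their large spread in both blocks is how they were chosen and is given as a description, without a test.

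The libraries are RNA sequencing libraries of muscle from the turquoise killifish Nothobranchius furzeri, an annual fish with a short life that is kept as a model of ageing. All 10 came from males of the inbred strain GRZ, aged 10 weeks, under the perturbation label swim-tunnel, a device in which a fish swims against a current. The labels name no unexercised fish and no second strain or age, and they do not say what the title numbers stand for or whether each library is a separate fish, so any p-value measures the spread between these libraries, which may be technical. Libraries are called here by title number, JG74 to JG84, with JG79 not among them.

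Fish trunk muscle is a mixed tissue. Fast white fibres make up most of it, slow red fibres lie in a separate strip along the flank, and blood, vessels, nerve, connective tissue, fat and skin can come with a dissected piece. A level in such a bulk library is a mean over all these cells, so fewer cells of a type and less RNA per cell cannot be told apart. A set of genes that vary among samples of an inbred strain is often described by which of them move together and in which samples.

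Genes are given by identifier, as in the count table. None (0 of 26739) matched a name in the RefSeq gene table of the species, so no function can be stated for any member, the muscle label could not be checked against marker genes, and the markers of slow and fast fibres, blood, immune cells, connective tissue, fat, nerve and skin could not be read. Depth ran from 24844696 counts in JG74 to 42170825 in JG83, at which the limit that a count of 0 allows (3 counts) is 0.121 and 0.0711 CPM. The blocks stand apart in the series as a whole: in 39.5% of the pool the 5 libraries of one block did not overlap with the 5 of the other.

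The members were mostly genes with low to middle counts. Their mean level ranged from 1.16 to 175 CPM with a median of 5.20 CPM, against 7.65 CPM in the pool. A mean under 5 CPM was found in 50 of them and a mean of 50 CPM or more in 5. Counting error accounted for a median of 0.677% of the variance of a member within its blocks, and for 1.97% at most. Together the 100 genes held between 0.0400% of the counts, in JG77, and 0.225%, in JG74, with a mean of 0.140% ± 0.0605 (SD, n = 10).

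The smaller SD had a median of 1.34 on the log2(CPM + 0.5) scale among the members and 0.15 in the pool. It was the SD of JG74 to JG78 in 59 members and that of JG80 to JG84 in 41. In the 79 members with more than 3 counts in every library, the highest library stood 6.93-fold to 752-fold above the lowest, with a median of 30.6-fold. The limit of membership fell in a continuous range: the last gene inside, Nfu_g_1_021155, had a smaller SD of 1.09 and the first outside, Nfu_g_1_013421, had 1.08. The 5 genes just inside lay between 1.09 and 1.10 and the 5 just outside between 1.07 and 1.08. Gene length, worked out from the deposited RPKM values and not used by the rule, was much as in the pool, with a median of 2840 bases (quartiles 1500 and 4994) against 2991 bases (quartiles 1518 and 5098).

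**Figure D1:**
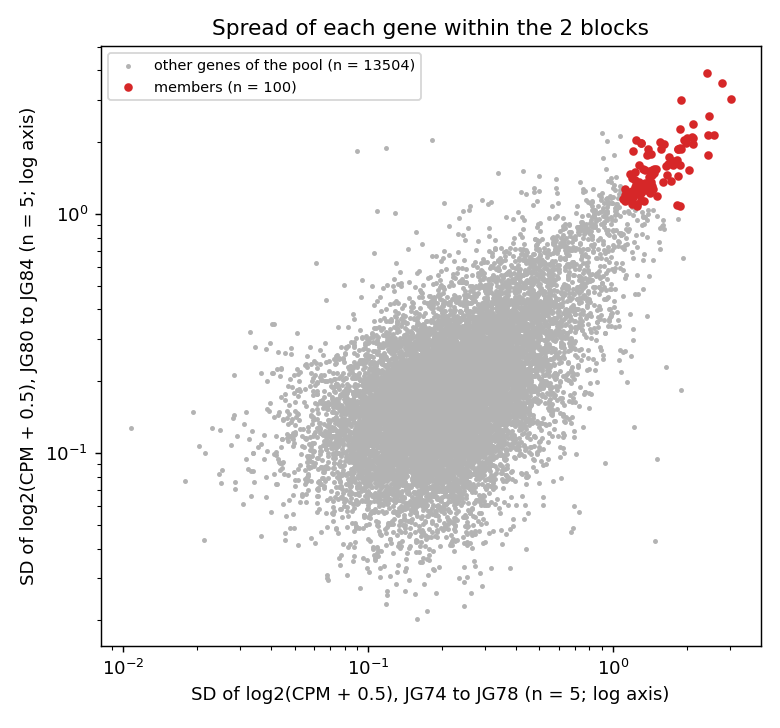
Each point is a gene of the pool, placed by its SD of log2(CPM + 0.5) among JG74 to JG78 (horizontal, log axis) and among JG80 to JG84 (vertical, log axis), with n = 5 libraries in each. The 100 members (red) lie at or above 1.09 on both axes by construction, and other genes are spread widely in a single block. Of the 100 genes with the largest SD, 68 in JG74 to JG78 and 73 in JG80 to JG84 are members.

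A large spread in one block went with a large spread in the other. When the 100 genes with the largest SD were chosen in JG74 to JG78 alone, 61 of them were also among the 100 chosen in JG80 to JG84 alone, while 100 genes are 0.735% of the pool. The SD of JG80 to JG84 was not used by the first choice, and its median over those 100 genes was 1.38, against 0.18 in the pool. In the other direction, the 100 genes chosen in JG80 to JG84 had a median SD of 1.37 in JG74 to JG78, against 0.21 in the pool. The blocks share tissue, strain and the abundance of each gene. Not every widely spread gene was shared: among the 100 of JG74 to JG78, the lowest position in the order of JG80 to JG84 was 13497 of 13604.

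The mean levels of the 2 blocks, a difference that the rule left out, were compared gene by gene with edgeR's quasi-likelihood test over all genes that passed its filter on low counts. Of 16094 genes tested, 42.7% differed between JG80 to JG84 and JG74 to JG78 at a Benjamini-Hochberg adjusted p below 0.05. Of the 95 members that passed the filter, 0 did: 0 were higher in JG80 to JG84, against 24.2% of all tested genes, and 0 lower, against 18.5%. Also, 0 had an unadjusted p below 0.05, while 50.3% of all tested genes had one. DESeq2, which gave no adjusted p for 4 of these members, called 0 as well. In all 100 members the blocks overlapped, while in 39.5% of the pool they did not. The wide spread within blocks that the members were chosen for favours overlap, so nothing is read from this. The log2 fold change of the tested members ranged from -1.65 to 1.76 and its size had a median of 0.47, against 0.39 over all tested genes. Its standard error was worked out from the test, as the size of the fold change over the square root of the F statistic. This error was wider, with a median of 0.86 against 0.16, which follows from the spread the members were chosen for. The median size thus lay below the median standard error. A median of 1.08% of the variance of a member lay between the blocks, against 49.0% in the pool, a share that wide spread within blocks lowers. No difference between the blocks was detected in these genes with all 10 libraries, and the test does not show that there is none.

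In all, 77 of the 95 tested members had a negative log2 fold change, lower in JG80 to JG84. The median was -0.41 in the members, against -0.01 over all tested genes. Of all members, 73 belong to groups 1 and 2, described below, and within each group the genes rise and fall together. The signs are therefore not separate cases. Their number was not tested, and no shift between the blocks is read from it. Scaling by library totals in place of TMM moved the median of all genes up by 0.23, and 69 members then had a negative value, with a median of -0.17. It also moved the calls over all genes, of which 56.7% were higher in JG80 to JG84 with TMM and 79.2% with library totals. A call appeared in single members when a library was left out, with edgeR's adjusted p in each case. Without JG74, Nfu_g_1_009390 was higher in JG80 to JG84 by 2.91 on the log2 scale (adjusted p = 0.0410) and Nfu_g_1_018656 by 2.17 (adjusted p = 0.0435). Without JG78, Nfu_g_1_018306 was higher by 2.89 (adjusted p = 0.0327), and without JG81, Nfu_g_1_021346 was lower by 1.66 (adjusted p = 0.0350). In each case the library left out was the highest of its block in that gene, so the call came with the loss of its extreme value. Over all genes the same fits called 6841 without JG74, 6515 without JG78 and 6422 without JG81. With all 10 libraries 6875 genes were called, which is 42.7% of those tested.

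Once the mean of each block was subtracted from every gene, most members followed one of a few shared profiles. Of the 4950 pairs of members, 28.4% had a Pearson correlation of at least 0.8 over the 10 libraries, against 1.26% of the pairs of the pool. A correlation of -0.8 or lower was found in 0.0202% of member pairs and in 0.701% of pool pairs, so members that moved together were common and mirror images rare. These values are descriptions over the same 10 libraries, which keep 8 degrees of freedom after block centring, and noise lowers r in genes that vary little. The first component of the centred values held 45.1% of the variance of the members and the second 39.2%, the third 4.84%. In the pool they held 31.2%, 24.98% and 12.8%.

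Joining genes by average linkage at a correlation of at least 0.8 gave 4 groups of at least 3 genes, holding 87 of the 100 members. The groups had 41, 32, 11 and 3 members, and the other 13 members stood alone or in pairs. The groups were made from these same values, so agreement inside them is built in, and they are given without a test.

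**Figure D2:**
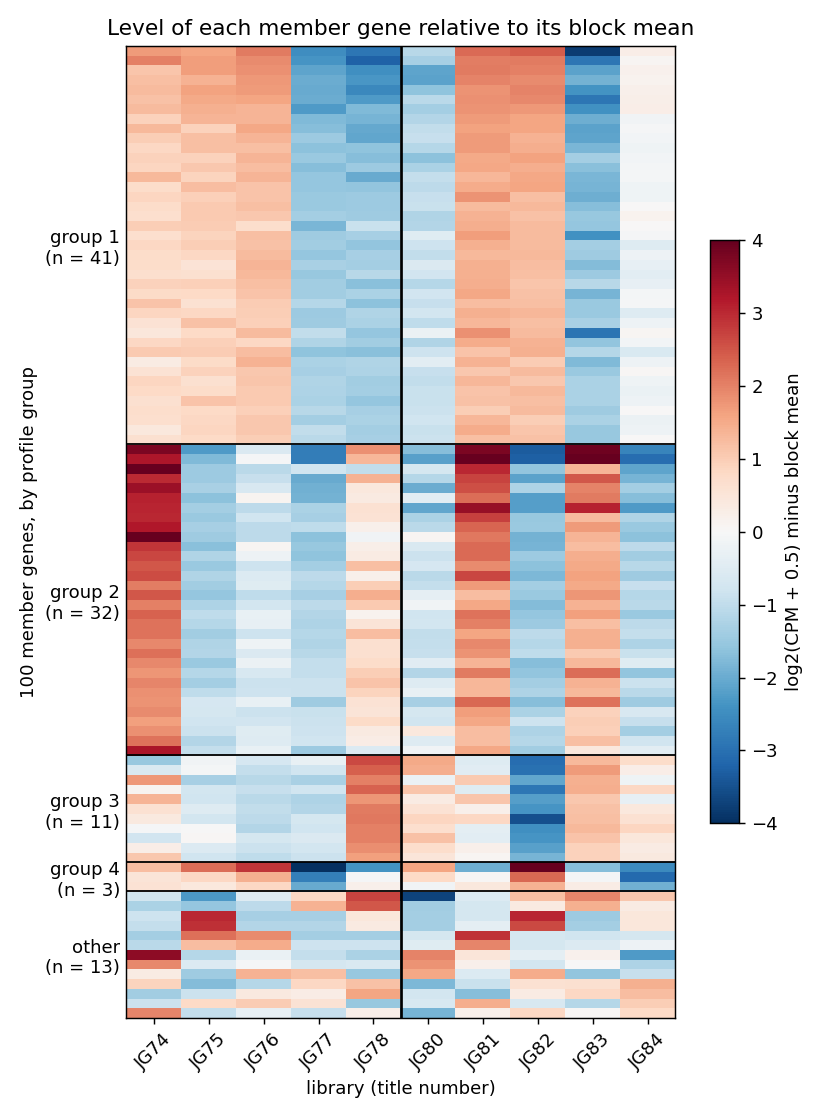
Each row is a member and each column a library, coloured by log2(CPM + 0.5) minus the mean of the gene in that block (red above, blue below, values beyond 4 in either direction in the end colour). The black vertical line parts the blocks and the horizontal lines part groups 1 to 4 (n = 41, 32, 11 and 3) and the 13 others: high libraries of groups 1 and 2 occur on both sides of the line.

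Group 1, the largest with 41 genes, was high in JG74, JG75 and JG76 of the first block and in JG81 and JG82 of the second. In all 41 genes these 5 libraries lay above their block mean, and JG77, JG78, JG80 and JG83 lay below it, while JG84 was near the mean (above it in 14 of the 41). The same signs in these 9 libraries were found in 3.84% of the pool. The median level over the 41 genes was 5.92, 6.75 and 8.24 CPM in JG74, JG75 and JG76 against 0.72 and 0.616 CPM in JG77 and JG78. In the second block it was 8.64 and 7.53 CPM in JG81 and JG82, 2.32 CPM in JG84, 1.07 CPM in JG80 and 0.427 CPM in JG83. JG83 was the lowest library in 33 of the 41 genes and JG81 the highest in 21.

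The gene closest to the mean of group 1 was Nfu_g_1_006470. It had 7.25, 9.78, 9.85, 0.686 and 0.616 CPM in JG74, JG75, JG76, JG77 and JG78, and 1.17, 11.7, 10.7, 0.474 and 2.89 CPM in JG80, JG81, JG82, JG83 and JG84. The high libraries lay between 7.25 and 11.7 CPM in this gene, and the low ones reached 1.17 CPM at most, with JG84 between. Nfu_g_1_007538 had the largest smaller SD of the group, at 2.46. Its levels were 81.6, 74.5, 104.5, 3.95 and 2.90 CPM in the first block and 7.05, 77.42, 86.7, 0.664 and 19.0 CPM in the second. Nfu_g_1_010175 was high and low in the same libraries, from 0.290 CPM in JG78 to 29.9 CPM in JG74, with a median of 14.8 CPM. Nfu_g_1_008939, the one gene of the group with 2 separate levels, lay between 0.326 and 0.549 CPM in 4 libraries and between 4.19 and 16.9 CPM in the other 6.

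Agreement within group 1 was close, with a median r of 0.98 between its genes and 0.85 in the least alike pair. In 35 of its genes with more than 3 counts in every library, the highest library exceeded the lowest by 7.62-fold to 163-fold. All 41 genes stayed together when any of the 10 libraries was left out, with TMM scaling, with rank correlation, and with joining at 0.9. The TMM factors, which measure the composition of the counts, were 0.975, 0.927 and 0.945 in JG74, JG75 and JG76 against 0.887 and 0.879 in JG77 and JG78. In JG80 to JG84 they were, in that order, 1.04, 1.17, 1.08, 1.06 and 1.07, so that JG81 and JG82 were highest there too. After block centring, the mean profile of group 1 had r = 0.81 with log2 of these factors and r = -0.40 with log2 total counts over the 10 libraries, as descriptions. In the second block JG81, with the fewest counts, was the highest library of the profile and JG83, with the most, the lowest. The other libraries did not all keep this order. JG82, which came next to JG83 with 34780739 counts, was at 1.41 in the mean profile. JG75, with the most counts of the first block (30973146), was at 1.03. With the factors applied all 41 genes still joined in 1 group. The factors differ little within a block, while the mean profile ran from -1.80 in JG83 to 1.51 in JG81 on the log2 scale. Applying them could thus hardly part the group, and nothing is read from this. The part of composition and depth in the profile was not tested. In groups 2, 3 and 4, described below, the mean profile had r = 0.53, -0.27 and 0.30 with log2 of the factors. With log2 total counts it had r = -0.26, -0.04 and -0.07. The part of composition and depth was not tested in these groups either.

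Group 2, with 32 genes, was high in JG74 of the first block and in JG81 and JG83 of the second. In all 32 genes these libraries lay above their block mean and JG75, JG77, JG82 and JG84 below it. JG74, JG81 and JG83 were the 3 highest libraries, relative to the block mean, in 31 of the 32. JG78 came next, above its block mean in 29 but at a lower level. The same signs in those 7 libraries were found in 4.46% of the pool. The median level over the 32 genes was 11.1 CPM in JG74, 9.20 CPM in JG81, 5.45 CPM in JG83 and 2.92 CPM in JG78. It was 0.355, 0.805 and 0.343 CPM in JG75, JG76 and JG77, and 0.933, 0.172 and 0.362 CPM in JG80, JG82 and JG84.

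The gene of group 2 with the largest smaller SD was Nfu_g_1_024366, with 68.1, 0.549, 2.85, 0.240 and 17.4 CPM in JG74 to JG78 and 1.31, 79.9, 0.0863, 86.3 and 0.452 CPM in JG80 to JG84. The lowest value rests on 3 counts, in JG82, and the next on 7 counts, in JG77. Nfu_g_1_011108, which had the larger SD in JG80 to JG84 (3.89 against 3.54), had 45.2, 113 and 130 CPM in JG74, JG81 and JG83 and 11.7 CPM in JG78, with 4.16 CPM or less in the other 6 libraries. Nfu_g_1_018030, the gene with the highest mean CPM of the group, had 204, 13.3, 27.2, 10.0 and 39.6 CPM in JG74 to JG78 and 18.5, 165, 12.3, 95.4 and 12.6 CPM in JG80 to JG84. It was highest in JG74, JG81 and JG83 as well, without any library near 0. The genes did not all weigh the high libraries alike. Nfu_g_1_019655 had 60.4 CPM in JG74, 24.3 CPM in JG81 and 7.23 CPM in JG83, while Nfu_g_1_010492 had 10.8, 26.8 and 19.8 CPM there.

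Within group 2 the median r was 0.95 and the lowest 0.74. The group had shorter genes than group 1, with a median length of 1850 bases against 3168 bases, and 11 of its 32 genes had 3 counts or fewer in at least 1 library, against 6 of 41. These differences between groups were not tested. All 32 genes stayed together when any library was left out, JG74 included. JG74 was nonetheless the highest library, relative to the block mean, in 26 of them. It was so in 25.2% of the pool too, the largest share of any library there. With joining at 0.9, 29 of the 32 genes stayed together, and with complete linkage 28.

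**Figure D3:**
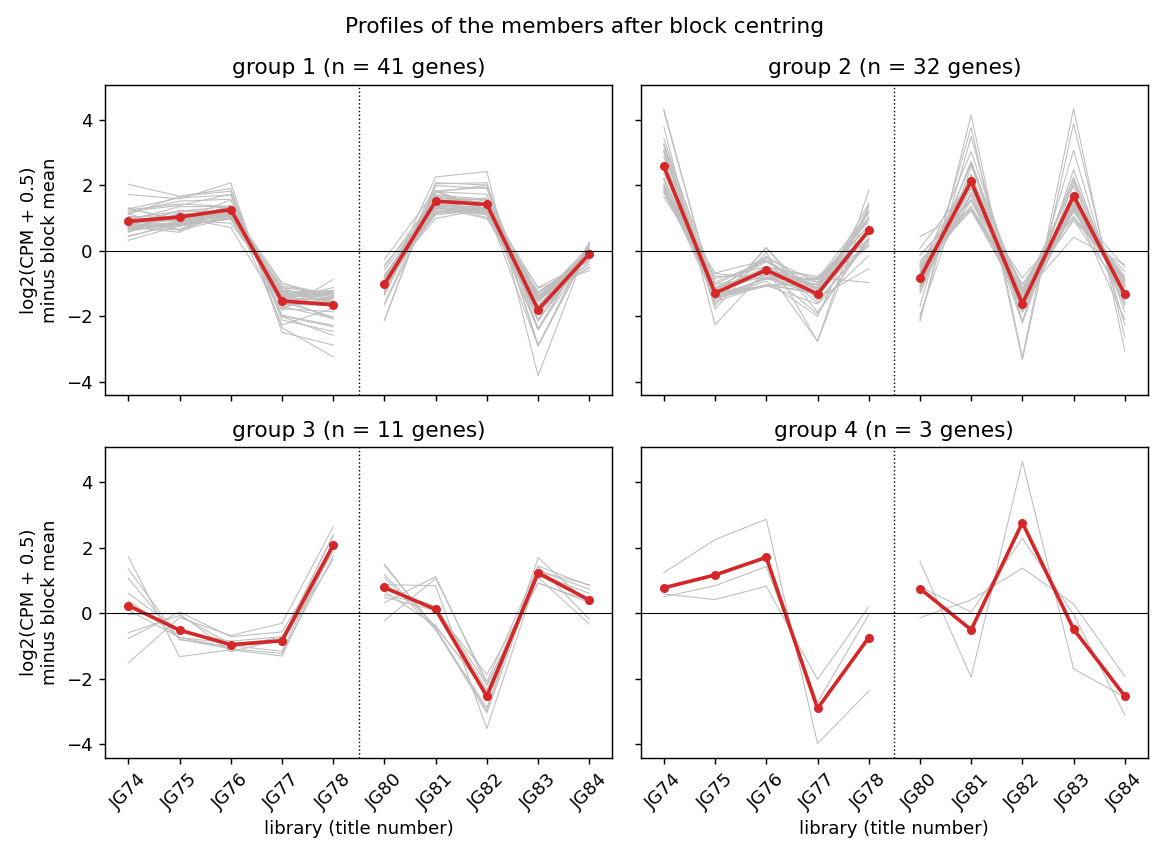
Grey lines are single members and red lines with points the mean of each profile group, as log2(CPM + 0.5) minus the block mean, for the 10 libraries in order of title number. Lines are broken between the blocks. Group 1 is high in 5 libraries and group 2 in JG74, JG81 and JG83.

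Groups 1 and 2 shared JG74 and JG81 as high libraries and JG77 as a low one. JG80 was mostly low in both, above its block mean in 0 of 41 genes of group 1 and 2 of 32 of group 2. The mean profiles of groups 1 and 2 were still unrelated over the 10 libraries, with r = 0.01 and rho = -0.08 as descriptions. JG75, JG76 and JG82 were high for group 1 and not for group 2, and JG83 was high for group 2 and the lowest library for group 1. Group 3, with 11 genes, went against group 1 in part, with r = -0.63 and rho = -0.71 between their means, and had r = 0.51 and rho = 0.44 with group 2. Groups 2 and 3 were not fully separate. In all, 34 members had r of at least 0.8 with the mean of group 2, its own 32 and some of group 3.

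Group 3 had JG78 as the highest and JG82 as the lowest library in all 11 genes. In all 11, JG78 and JG83 lay above their block mean and JG76, JG77 and JG82 below it. The same signs in these 5 libraries were found in 5.90% of the pool and in 38 members. The median level over the 11 genes was 79.5 CPM in JG78 and 2.24 CPM in JG82. It was 25.6, 11.4, 9.51 and 10.6 CPM in JG74 to JG77, and 22.7, 15.6, 32.5 and 19.9 CPM in JG80, JG81, JG83 and JG84. Its genes drew more counts than those of the other large groups, with a median of the mean levels of 22.8 CPM against 4.15 CPM in group 1 and 3.40 CPM in group 2, and all 11 had more than 3 counts in every library. They were longer as well, with a median of 5688 bases. Nfu_g_1_001021 was the closest to the group mean, with 25.8, 14.3, 11.6, 12.8 and 79.5 CPM in JG74 to JG78 and 22.4, 15.6, 2.56, 26.0 and 17.0 CPM in JG80 to JG84. In Nfu_g_1_007454 the level was 443 CPM in JG78 and 12.9 CPM in JG82, around a median of 80.5 CPM. Within group 3 the median r was 0.92 and the lowest 0.52, below the lowest in groups 1 and 2. Without JG82, 6 of the 11 genes stayed together, and without any one of the other 9 libraries at least 9 did.

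Group 4 had 3 genes, among them Nfu_g_1_005737, the member with the largest smaller SD of all, at 3.01. Its counts in JG74 to JG78 were 2893, 7276, 9651, 77 and 249, and in JG80 to JG84 they were 1043, 71, 10478, 137 and 52. In CPM that is 116, 235, 361, 2.64 and 9.03, then 36.0, 2.64, 301, 3.25 and 1.57. It was high where group 1 was high in JG74, JG75, JG76 and JG82, but not in JG81, where it was near its lowest level. Relative to its block mean it also stood at 1.58 on the log2 scale in JG80, where all 41 genes of group 1 lay below theirs. In JG84, where group 1 was near its mean, it stood at -2.56. Nfu_g_1_009854 and Nfu_g_1_018231, the other 2 genes, were likewise highest in JG82 and JG76 and lowest in JG84, at 0.482 and 0.633 CPM. In all 3 genes JG74, JG75, JG76 and JG82 lay above their block mean and JG77 and JG84 below it. The same signs in these 6 libraries were found in 4.43% of the pool and in 30 members.

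The genes most like the 3 leading members were looked for in the whole pool, by r of block-centred values over the 10 libraries. For Nfu_g_1_024366 and Nfu_g_1_007538 they were all members. Nfu_g_1_002617, Nfu_g_1_011108 and Nfu_g_1_016280 followed the first with r of 0.994, 0.989 and 0.987, and Nfu_g_1_009338, Nfu_g_1_009468 and Nfu_g_1_026064 the second with r of 0.997, 0.992 and 0.990. For Nfu_g_1_005737 none of the 3 was a member. Nfu_g_1_022917 (r = 0.95, rho = 0.95) had a smaller SD of 0.12, Nfu_g_1_022542 (r = 0.93, rho = 0.96) one of 0.43 and Nfu_g_1_001674 (r = 0.90, rho = 0.95) one of 0.09. These are the highest of 13604 values of r, so a high r is built in, and the first and the last of them had a mean of 1.26 and 1.56 CPM, near the lower limit of the pool, where counting error weighs most.

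Many more genes followed the group profiles than the members. In the pool, 588 genes (4.32%) had r of at least 0.8 with the mean of group 1, of which 547 were not members, and 51 (0.375%) had r of -0.8 or lower. For group 2 it was 361 genes (2.65%), 327 of them not members, against 19 (0.140%) in the opposite direction. For group 3 it was 80 genes (0.588%) against 30 (0.221%), and for group 4 it was 88 (0.647%) against 60 (0.441%). Single libraries moved these counts: genes following group 2 were 552 without JG80, 550 without JG78 and 547 without JG84, and those following group 3 were 162 without JG74, 135 without JG80, 134 without JG84 and 129 without JG77. The scaling moved them too: with TMM the genes following groups 1, 2 and 3 were 452, 266 and 107. At r of at least 0.9 they were 327, 111 and 36. The non-members that followed groups 1 and 2 had a median smaller SD of 0.38 and 0.31, over the pool median of 0.15. None (0) of the members had r of -0.8 or lower with the mean of any of the 4 groups. The genes opposite to the groups were thus all non-members, so a smaller SD below the 1.09 of the last member is built in. It reached 0.59 at most in the genes opposite to group 1 and 0.88 in those opposite to group 2.

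Levels close to on and off were the exception among the members. A gene was called two-level where the largest step between neighbouring libraries, sorted by level, was at least 2 on the log2(CPM + 0.5) scale with at least 2 libraries on either side. This held for 11 of the 100 members, in 0.184% of the pool. A step of that size that set 1 library apart was found in 3 members and 0.0882% of the pool, and the other 86 members were graded. The rule favours wide genes, so nothing is read from these shares. The number of two-level members depends on the size asked for and on single libraries, being 32 with a step of at least 1.5 and 1 with a step of at least 3, and 29 without JG84, 20 without JG78 and 17 without JG83.

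The clearest step was that of Nfu_g_1_017402, of 3.18 on the log2 scale. It had 170 counts in JG75, 116 in JG76 and 158 in JG81, which is 5.49, 4.34 and 5.88 CPM. It had 0 counts in JG74, JG77, JG78 and JG83 and 1 count in JG80, JG82 and JG84. Nfu_g_1_021346, which formed a pair with it, was high in the same 3 libraries, with 33.9, 40.5 and 39.9 CPM, but lay between 5.84 and 8.50 CPM in the other 7. The first gene of this pair was at or under the limit of 3 counts wherever it was low, and the second was not.

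Of the 11 two-level members, 7 belonged to group 2 and 1 to group 1. Nfu_g_1_009390, with a step of 2.92, had 73.3, 106 and 69.8 CPM in JG74, JG81 and JG83, and between 1.30 and 8.77 CPM in the other 7 libraries. Nfu_g_1_010492 had a step of 2.45 between the same 3 libraries and the rest, and 0 counts in JG84. In Nfu_g_1_002617 the upper level held 4 libraries, with 8.77 CPM in JG78 beside 27.6, 22.1 and 18.9 CPM in JG74, JG81 and JG83. Nfu_g_1_022232 had 31.1 CPM or more in JG74, JG81 and JG83 and 6.67 CPM or less elsewhere. Of the members with 1 library set apart, Nfu_g_1_009837 was at 43.3 CPM in JG74 and at 9.31 CPM or less elsewhere. Nfu_g_1_010041 and Nfu_g_1_017699 of group 3 were lowest in JG82, at 1.06 and 2.24 CPM, with at least 9.13 and 13.1 CPM in every other library. These 3 were named after their values were seen.

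A count of 3 or fewer in at least 1 library was found in 21 members, against 0.323% of the pool, and a count of 0 in 7, of 14 such genes in the whole pool. In 15 members a library at 3 counts or fewer stood beside another at 5 CPM or more, of 23 such genes in the whole pool. The rule favours wide genes, so nothing is read from these numbers either.

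**Figure D4:**
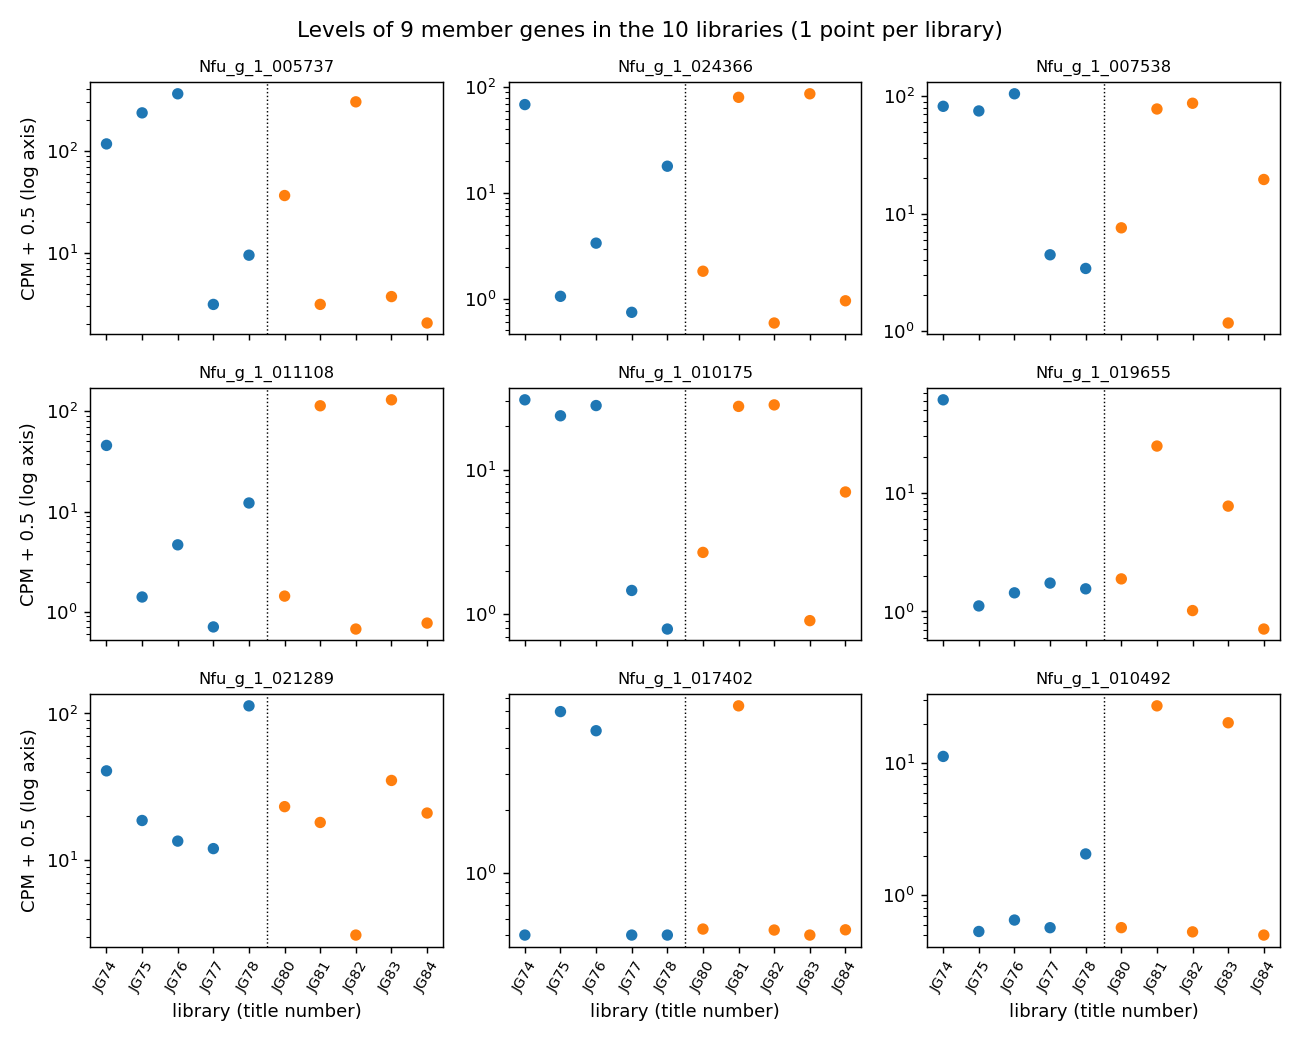
CPM + 0.5 on a log axis in the 10 libraries (1 point each, JG74 to JG78 in blue, JG80 to JG84 in orange) for the 6 members with the largest smaller SD and for Nfu_g_1_021289 of group 3, Nfu_g_1_017402 and Nfu_g_1_010492. High and low libraries occur in both blocks in all 9, and intermediate levels in most.

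Among the 13 members outside the groups, Nfu_g_1_018306 had the highest mean, 175 CPM. It had 22.7, 7.43, 27.0, 69.2 and 254 CPM in JG74 to JG78 and 11.0, 103, 348, 589 and 320 CPM in JG80 to JG84. Its pair, Nfu_g_1_006881, had 54.3 CPM in JG78 and 70.2 CPM in JG83 and was lowest in JG75, at 2.84 CPM. Nfu_g_1_018656 and Nfu_g_1_022712 formed another pair, highest in JG74 and JG80, with 35.3 and 18.2 CPM in the first and 12.5 and 15.9 CPM in the second. Nfu_g_1_021435, alone, had 274 CPM in JG74 and 11.4 CPM in JG80, with 36.5 to 82.6 CPM in the other 8 libraries. None of these genes joined one of the 4 groups at the limit of 0.8.

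The members were also placed by gene number. The numbers are those in the identifiers, and the sources used here do not say that they follow the genome. With a difference of 1 there were 2 pairs of members among 8084 such pairs in the pool, so 4 members had a member beside them. There was no run of 3. Whether members lie closer to each other than other genes of the pool was not tested. Of the 117 pool pairs with a difference of 1 that hold a member, 4.27% had r of at least 0.8, against 1.48% of all 8084 such pairs in the pool. For pairs with a member the share was between 3.51% and 4.72% at differences of 2, 3, 4, 5 and 10, so it was no higher for neighbours than at 10, and 0.917% at 50. These shares rest on 4 to 6 pairs each, and on 1 pair at 50.

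The first adjacent pair, Nfu_g_1_007316 and Nfu_g_1_007317, had nearly the same profile (r = 0.996, rho = 0.98), high in JG75 at 7.91 and 9.56 CPM and in JG82 at 8.71 and 10.8 CPM, and at 1.54 CPM or less elsewhere. The genes are 1954 and 2121 bases long. Whether they share reads is not known, since the treatment of reads that match several genes is not given. The second pair, Nfu_g_1_012785 and Nfu_g_1_012786, had unrelated profiles (r = -0.04, rho = -0.08). The first belonged to group 2, with 6.20 CPM in JG74 and 0.0646 CPM in JG75, and the second to group 1, with 5.11 and 5.55 CPM in the same libraries.

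Up to a difference of 10 there were 10 pairs of members, and 5 of them had both genes in the same group or pair. In group 2 these were Nfu_g_1_003618 with Nfu_g_1_003622 (r = 0.99), and Nfu_g_1_018039 with both Nfu_g_1_018030 (r = 0.98) and Nfu_g_1_018042 (r = 0.99). In group 1 it was Nfu_g_1_023108 with Nfu_g_1_023111 (r = 0.96), which are 342 and 12326 bases long. In the other 5 pairs the genes belonged to different groups and r lay between -0.56 and 0.06. Of all 4950 pairs of members, 28.4% had r of at least 0.8. The pairs that share Nfu_g_1_018039 are not separate cases, and whether near pairs are more alike was not tested.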

How the data were processed

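Read counts per gene, as whole numbers, were used as the authors deposited them (26739 genes, 10 libraries). The submitters' processing notes name featureCounts 1.4.6-p4, the aligner STAR 2.4.1d and, for base calls, bcl2fastq 1.8.4. Parameters, genome build, annotation and strand are not stated there, so reads of genes that overlap, also on opposite strands, may have been mixed. The authors also deposited RPKM values. The length implied by count and RPKM varied by at most 0.0716% within a gene over 5434 genes with at least 200 counts everywhere when the 10 totals were repeated down the columns, and by a median of 23.5% with the own total, so RPKM served only to work out lengths.

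The members and lists were chosen with earlier results of these data known. CPM used column totals. SD, two-level steps, block-centred correlations and average linkage were computed with numpy 2.4.6, pandas 2.3.3 and scipy 1.17.1 under Python 3.11.15. The blocks were compared with edgeR 4.0.16 (R 4.3.3; TMM, filterByExpr, quasi-likelihood test, Benjamini-Hochberg adjustment over 16094 genes), with DESeq2 1.42.0 as an alternative. The methods were tested on simulated data. Named genes were the 10 members with the largest smaller SD, the 5 on either side of the limit, the 10 two-level members with the largest step, the 3 closest to each group mean and the 3 most like each of the 3 leading members; not all are printed, and the members of pairs outside the groups, those with 1 library apart, those called with a library left out and those near each other in number were named after their values were seen. The marker lists could not be read. Intervals and limits from counts cover counting error only.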

Additional observations from a re-analysis of the deposited data

How the results depend on the processing

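All 10 libraries share 1 group label and the labels match no library to another, so no paired analysis was possible. Of the 100 members, 98 remained with TMM, 97 with DESeq2 size factors, 96 for spread corrected for abundance, 82 and 71 with pseudocounts of 0.1 and 2, 99 with no filter on low counts, and 50 with a mean of at least 5 CPM, which by its construction removes the 50 with less; 74 (without JG74) to 94 remained when a library was left out. The overlap of the blocks' own 100 genes was 61 for spread corrected for abundance, 56 to 64 under all other settings and 47 to 59 with a library left out, against 61. Two-level members were 32 with a step of at least 1.5, 1 with at least 3, 24 and 2 with pseudocounts of 0.1 and 2, and 9 to 29 with a library left out. Group 3 kept 6 of its 11 genes together at r of at least 0.9, 7 with Spearman's correlation, and 6 to 11 with a library left out. Genes following groups 1, 2 and 3 were 327, 111 and 36 at r of at least 0.9, and 557 to 740, 262 to 552 and 90 to 162 with a library left out; the counts for group 2 were highest without JG80 (552), JG78 (550) and JG84 (547), and those for group 3 were 162 without JG74, 135 without JG80, 134 without JG84 and 129 without JG77. With TMM scaling the genes following groups 1, 2 and 3 were 452, 266 and 107. Members with another within 3 or 5 gene numbers were 8 and 14, a wider limit. Between the blocks, 5944 genes were higher and 1558 lower with library totals, against 3897 and 2978 with TMM. Members called were 0 to 2 with a library left out, 0 to 2 higher and 0 to 1 lower. The same fits called 5998 to 6841 of all genes tested, and 42.7% of 16094 genes were called with all 10 libraries. The wide spread that the members were chosen for makes calls rare in them, so nothing is read from this. Where no construction is named, the cause was not tested. The alternatives on genes following the groups and the scaling by library totals between blocks were chosen after seeing the data.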
